A study of Mus musculus with 8 samples.

Results

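The Toll-like receptor genes of liver macrophages were examined for their difference between mice fed a western diet and mice fed a normal diet. Every gene whose symbol is Tlr followed by a number was taken from the authors' deposited table, which gave 6 genes of the 2386 listed: Tlr1, Tlr5, Tlr8, Tlr9, Tlr11 and Tlr12. All 6 were higher in the western diet group, by 2.04-fold (Tlr12) to 5.06-fold (Tlr11) in the authors' deposited table. They were chosen by the table's own filter, which keeps p-values under 0.05 (largest found, 0.04995) and log2 fold changes of more than 1 in size (smallest found, 1.00011). That all 6 differ between diets is therefore a consequence of how they were picked, and their values are given as a description. The other 6 mouse receptors of the family, Tlr2, Tlr3, Tlr4, Tlr6, Tlr7 and Tlr13, were not listed, which leaves unsaid whether they missed a limit or were not measured.

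RNA from liver macrophages of C57BL/6 mice, an inbred laboratory strain, was compared between a western diet group (WD, 4 libraries) and a normal diet group (ND, 4 libraries). The series design states 4 mice in each group, and the sources used here do not say what the diets contained, how long they were fed, how old the animals were or how the macrophages were obtained. The table names its groups WDV and NDV without saying what the V stands for, and they are read here as the WD and ND libraries. Its only values are 1 mean normalized read count, 1 log2 fold change (WD over ND) and 1 standard error (SE) per gene, so the levels in single libraries, their overlap between diets and their sequencing depth are unknown.

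Toll-like receptors are membrane proteins of the innate immune system. A leucine-rich repeat domain on the outer or luminal side binds a microbial product, and a cytoplasmic TIR domain recruits adaptors such as MyD88, which lead to NF-kB and interferon regulatory factors and so to cytokine genes. Some of these receptors sit at the cell surface and bind bacterial lipopeptide, lipopolysaccharide or flagellin, whereas others reach the endosome with the chaperone UNC93B1 and bind nucleic acids or protozoan profilin. The liver receives blood from the gut, and its macrophages and sinusoidal endothelial cells meet bacterial products carried there.

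Promoters are shown for the 3 receptor genes with the clearest fold changes (Tlr9, Tlr11 and Tlr5). That of Tlr1 is shown because it shares a motif, GAGGAAGT, with Tlr9 and Tlr11. The windows of Tlr8 and Tlr12 and the other window of Tlr1 are not shown and lack this motif. It was thus held by 3 of the 7 windows of the 6 genes. The motifs were chosen with earlier results of these data known. Each RefSeq window (GRCm38.p6) runs from 250 bases before the annotated start to 30 bases after it, in the direction of the gene, and capitals mark matches to the motifs named after the sequences. The windows lie at chr9:106222348-106222627 on the plus strand (Tlr9), chr14:50357664-50357943 on the plus strand (Tlr11), chr5:64933529-64933808 on the minus strand (Tlr1) and chr1:182954538-182954817 on the plus strand (Tlr5).
Tlr9: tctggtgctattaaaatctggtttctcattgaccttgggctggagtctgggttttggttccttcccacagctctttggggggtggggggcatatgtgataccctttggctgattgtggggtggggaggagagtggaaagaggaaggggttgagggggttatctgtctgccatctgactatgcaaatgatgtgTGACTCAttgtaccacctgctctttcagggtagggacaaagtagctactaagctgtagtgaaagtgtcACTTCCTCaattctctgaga
Tlr11: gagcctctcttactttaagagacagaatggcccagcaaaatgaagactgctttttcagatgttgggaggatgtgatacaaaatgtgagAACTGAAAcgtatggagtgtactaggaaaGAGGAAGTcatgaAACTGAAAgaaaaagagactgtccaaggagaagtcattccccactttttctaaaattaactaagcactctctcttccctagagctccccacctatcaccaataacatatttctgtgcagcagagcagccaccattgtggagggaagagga
Tlr1: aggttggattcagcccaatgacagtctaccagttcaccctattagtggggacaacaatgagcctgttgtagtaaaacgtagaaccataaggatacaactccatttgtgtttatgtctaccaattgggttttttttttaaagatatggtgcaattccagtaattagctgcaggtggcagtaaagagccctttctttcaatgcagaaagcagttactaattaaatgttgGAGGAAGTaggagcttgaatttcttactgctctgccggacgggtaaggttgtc
Tlr5: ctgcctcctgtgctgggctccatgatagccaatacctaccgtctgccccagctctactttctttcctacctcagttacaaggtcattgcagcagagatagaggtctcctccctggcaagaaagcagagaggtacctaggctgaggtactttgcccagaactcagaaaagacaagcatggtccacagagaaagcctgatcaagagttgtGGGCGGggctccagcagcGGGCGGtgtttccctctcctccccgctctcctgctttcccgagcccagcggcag

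The motif GAGGAAGT, a purine-rich site of the kind bound by PU.1, an ETS factor of myeloid and B cells, was found on either strand in the windows of 3 of the 6 receptor genes. It started 23 bases before the start site of Tlr1, 133 bases before that of Tlr11 and, on the other strand, at base 11 after that of Tlr9. Among all 32851 RefSeq windows of 300 bases, 3.20% held it. Counts of receptors here are per gene and shares are per window. The 6 receptor genes have 7 windows, and a gene with more than 1 window has more than 1 chance of a match. None of the 4 unlisted family members with a window held it. The interferon regulatory factor core AANNGAAA was found for Tlr1 (in the window of its other annotated start), Tlr11 and Tlr12, for 3 of the 4 unlisted members, and in 23.9% of all windows. In Tlr11 it occurred at 162 and 120 bases before the start, on both sides of the GAGGAAGT match. Tlr9 held the AP-1 motif TGANTCA (7.81% of all windows, none of the unlisted 4) at 58 bases before its start. Tlr5 held the GC box GGGCGG (35.7% of all windows, 2 of the unlisted 4) at 42 and at 24 bases before its start. It had no other exact match of the set. Tlr8 and Tlr12 held neither GAGGAAGT nor TGANTCA either. The interferon gamma activated site TTCNNNGAA (8.30% of windows) was present for Tlr1, Tlr8 and 1 of the unlisted 4. For Tlr1 it too lay in the window of the other annotated start, which is not shown. An exact match to the NF-kB consensus (5.81% of windows) was present for none of the 6 and for 2 of the unlisted 4. No match overlapped another in the windows shown. These are matches of letters in short windows, and whether any factor binds there was not tested.

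Both listed surface receptors were higher under western diet. Tlr1, which pairs with TLR2 to bind bacterial lipopeptides (ENSMUSG00000044827, chromosome 5, 64924679 to 64933563, GRCm38, minus strand), had a mean normalized count of 309.96 and a log2 fold change of 1.16 ± 0.15 (SE) in the authors' deposited table, which is 2.23-fold with a 95% interval from 1.81-fold to 2.75-fold. Of the 50-base words in Tlr1 transcripts, 15.4% also occurred in transcripts of other genes, most of them (454 of 513) in the neighbouring paralog Tlr6, so some reads could be credited to either gene. Tlr5, the receptor for flagellin (ENSMUSG00000079164, chromosome 1, 182954788 to 182976044, plus strand), had a mean normalized count of 161.7 and stood 2.77-fold higher in the authors' deposited table (log2 1.47 ± 0.20, interval 2.12-fold to 3.63-fold). None of the 50-base words of Tlr5, Tlr8, Tlr9, Tlr11 or Tlr12 occurred in another gene's transcripts.

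The other 4 listed receptors act in endosomes. Tlr9, which binds DNA rich in unmethylated CpG (ENSMUSG00000045322, chromosome 9, 106222598 to 106226883, plus strand), had the smallest p-value of the 6 in the authors' deposited table, at 2.87-fold higher in WD (log2 1.52 ± 0.18, interval 2.24-fold to 3.68-fold) and a mean normalized count of 200.3. Tlr8, the X-linked neighbour of the RNA sensor gene Tlr7 (ENSMUSG00000040522, chromosome X, 167242696 to 167264329, minus strand), had the highest mean normalized count of the 6, 461.5, and stood 2.09-fold higher in the authors' deposited table (log2 1.06 ± 0.19, interval 1.63-fold to 2.69-fold). TLR8 is an RNA sensor in human cells, and its part in mice is less settled.

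Tlr11 and Tlr12 encode the mouse receptors for profilin of the parasite Toxoplasma gondii, and human TLR11 is a pseudogene. Tlr11 (ENSMUSG00000051969, chromosome 14, 50357914 to 50363663, plus strand) showed the largest fold change of the 6 in the authors' deposited table, 5.06-fold, on its lowest mean normalized count, 21.7. Its interval was correspondingly wide, from 2.56-fold to 10.0-fold (log2 2.34 ± 0.50). Tlr12 (ENSMUSG00000062545, chromosome 4, 128615443 to 128618619, minus strand) had the smallest fold change of the 6 in the authors' deposited table, 2.04-fold (log2 1.03 ± 0.18, interval 1.60-fold to 2.60-fold), at a mean normalized count of 141.9. The gene pair thus spans the whole range of fold changes in the listed family.

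**Figure D1:**
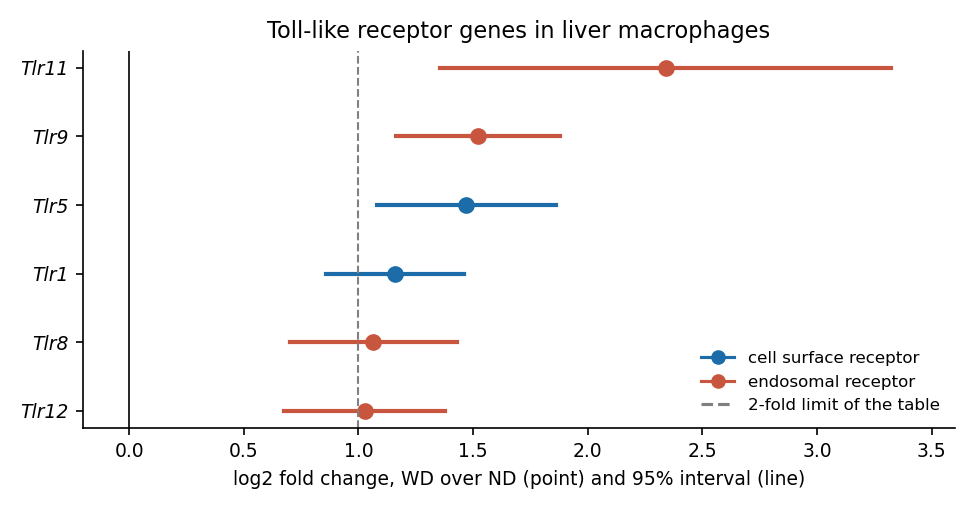
Log2 fold change (WD over ND) of the 6 listed Toll-like receptor genes as points, with 95% intervals from the authors' SE as lines, blue for surface and red for endosomal receptors. The whole interval lies to the right of the dashed 2-fold limit for Tlr11, Tlr9 and Tlr5, and crosses it for Tlr1, Tlr8 and Tlr12.

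The 6 genes did not all clear the 2-fold limit by the same margin. For Tlr9, Tlr5 and Tlr11 the 95% interval of the authors' deposited table lay wholly above 2-fold, and for Tlr1, Tlr8 and Tlr12 it reached below. Tlr12 and Tlr8, at log2 1.03 and 1.06, stood just inside the limit of 1, and no receptor just outside it can be shown because the table ends there. The deposited adjusted p-values ran from 2.03e-15 for Tlr9 to 2.98e-05 for Tlr11 in the authors' deposited table. The unadjusted p-values from which they derive are part of what admitted the genes. The intervals overlapped in all 15 pairs of the 6 genes. The largest gap in log2 fold change, between Tlr11 and Tlr12, was 1.31, and no test of it was made.

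Among the genes listed with them, the receptors were moderate in fold. All 6 were higher in WD, whereas the authors' deposited table held 706 genes that were higher and 1680 that were lower. Calls were made at an adjusted p below 0.05 among listed genes, which all exceed 1 in absolute log2 fold change. They numbered 526 higher genes, 3.0% of the 17531 genes with an adjusted p (below, tested genes), and 1464 lower genes, 8.35%. Genes that differ by less than 2-fold are not counted in these shares. Since this contrast chose the receptors, their 6 calls are not read against these shares. The median log2 fold change was 1.32 for the 6 receptors, against 1.38 for all listed genes that were higher in the authors' deposited table. The median mean normalized count was 181 for the 6 receptors and 26.4 for those higher genes. Ranks by fold change thus compare genes of unlike count. By size of fold change among those 706 genes, Tlr11 came 89th, Tlr9 291st, Tlr5 308th, Tlr1 511th, Tlr8 619th and Tlr12 662nd. By p-value over the 17531 genes with an adjusted p, Tlr9 came 535th, Tlr1 682nd, Tlr5 701st, Tlr12 1168th, Tlr8 1170th and Tlr11 1789th. The SE of Tlr11, 0.50, was close to the median of 0.45 among listed genes of like mean count (1 of 4 equal groups), and that of Tlr9, 0.18, to 0.21 in its own group.

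**Figure D2:**
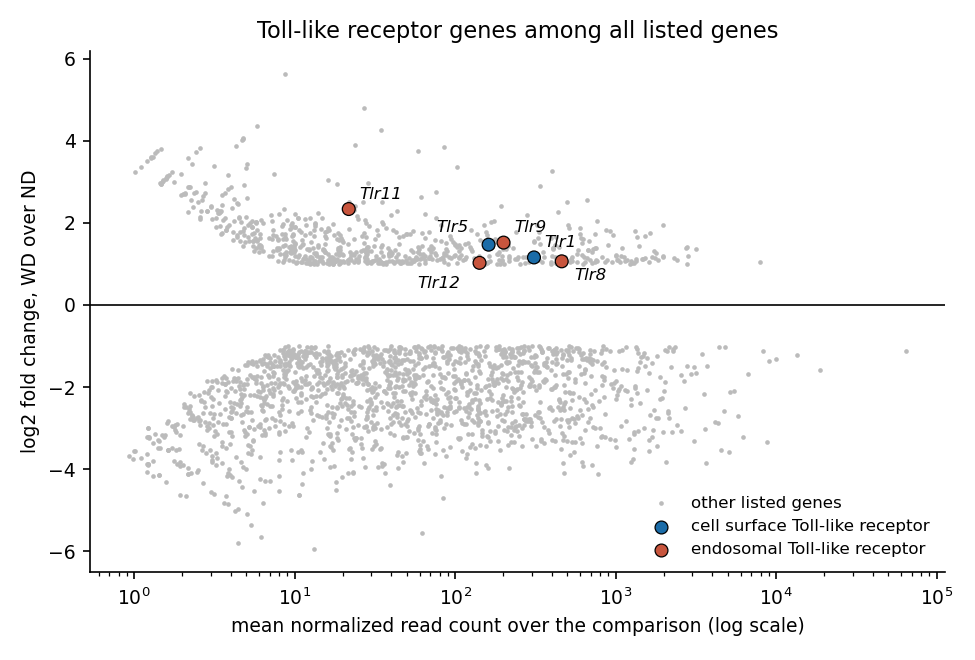
Mean normalized read count (log scale) against log2 fold change (WD over ND) for all 2386 listed genes, with surface receptors in blue, endosomal receptors in red and the other listed genes in grey. Tlr11 sits to the left at a mean count of 21.7 and above the others, and the remaining 5 receptors lie between 141.9 and 461.5 normalized counts.

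Levels were compared between the receptors per kilobase of exon, using the union of annotated exons (GENCODE M21). These levels are read here as means over both diets, so the order within either diet is not given. Had the authors' fit held other groups, the means would cover those too. On that scale Tlr8 was the most abundant, at 129 mean normalized counts per kilobase in the authors' deposited table, followed by Tlr1 at 92.6, Tlr9 at 57.6, Tlr12 at 44.7, Tlr5 at 33.8 and Tlr11 at 6.64. The order by level is not the order by fold change: the gene with the lowest level had the largest fold change, and the gene with the highest level had the smallest but one. Whether neighbours in this order differ beyond the spread between libraries cannot be said, as the table gives no spread of levels. Genes with a pattern like that of a receptor could not be sought either, since 1 comparison gives no pattern across samples.

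The rest of the pathway was followed in 8 further lists, arranged by role, with 146 genes in all outside the receptor family. Of these, 30 were listed, 20 were called higher (13.7%, against 3.0% of all tested genes) and 9 were called lower (6.16%, against 8.35%), while 116 had no entry in the authors' deposited table. Where genes of other cell types moved in the same comparison, as given further on, their part in these counts was not tested. The lists, those of cell type markers included, were chosen with earlier results of these data known. Their shares beside those of all tested genes are therefore a description, and enrichment of the lists was not tested.

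Of 12 co-receptor and ligand delivery genes, 2 were called higher (16.7%, against 3.0% of all tested genes) and 1 lower (8.33%, against 8.35%), and Cd14, Ly96 and Cd36 were not listed. Cd180, a homolog of TLR4 without a signalling domain, rose by log2 1.17 ± 0.19, and Clec7a, the beta-glucan receptor dectin-1, rose by 1.05 ± 0.14 in the authors' deposited table. Lbp, the serum protein that carries lipopolysaccharide to CD14, fell 2.35-fold (log2 -1.23 ± 0.20) in the authors' deposited table. Of 19 chaperone, trafficking and endosomal processing genes none was called higher (against 3.0% of all tested genes) and 2 were called lower (10.5%, against 8.35%), shares near those of all tested genes, with Unc93b1, Hsp90b1, Cnpy3 and Slc15a4 not listed. Dnase1l3, an extracellular DNase, fell 5.99-fold (log2 -2.58 ± 0.23), and Ctsl, one of the endosomal proteases that cleave TLR9, fell 2.48-fold (log2 -1.31 ± 0.19) in the authors' deposited table. Dnase1l3 is also a marker of sinusoidal endothelium, all 16 markers of which were lower. Ctsk, another endosomal protease gene, stood in the authors' deposited table at -1.04 ± 0.53 without passing (adjusted p 0.127).

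For the signalling genes, the shares called were near those of all tested genes. Of 25 adaptor, kinase and ubiquitin ligase genes, 1 was called higher (4%, against 3.0%) and none lower (against 8.35%). This gene, Pik3ap1, encodes an adaptor that links Toll-like receptors to phosphoinositide 3-kinase and rose 2.17-fold (log2 1.12 ± 0.11) in the authors' deposited table. Myd88, Tirap, Ticam1, Irak4, Traf6 and Tbk1 were among the 24 not listed. Of 15 transcription factor genes, Irf1, an interferon-induced factor, was the single listed member and fell by log2 1.03 ± 0.19 (6.67% called lower, against 8.35%, and none higher, against 3.0%). Among 18 inhibitor genes the authors' deposited table held 3, 1 called higher (5.56%, against 3.0%) and 2 called lower (11.1%, against 8.35%). Tnip3, which binds the NF-kB inhibitor A20, rose by log2 1.21 ± 0.15, whereas the cytokine signalling inhibitors Socs3 (-1.48 ± 0.16) and Socs1 (-1.25 ± 0.23) fell in the authors' deposited table.

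Known targets of the receptors were mostly called higher where they were listed. Of 30 target genes the authors' deposited table held 11, of which 9 rose (30% of the list, against 3.0% of all tested genes) and 2 fell (6.67%, against 8.35%). The subunit genes of interleukin-12, Il12b and Il12a, stood at log2 2.43 ± 0.31 and 1.83 ± 0.57, and Il27, a cytokine subunit of the same family, at 1.41 ± 0.28 in the authors' deposited table. Ccl22 rose by log2 2.05 ± 0.26 and Ccl5, also expressed by T and NK cells, by 1.73 ± 0.29. Ptgs2, the inducible cyclooxygenase gene, stood at log2 1.17 ± 0.27 and the co-stimulatory gene Cd86 at 1.16 ± 0.12 in the authors' deposited table. Nos2, the inducible nitric oxide synthase gene (3.26 ± 1.02), and the chemokine gene Cxcl9 (1.15 ± 0.46) passed with adjusted p-values of 0.00724 and 0.0450 in the authors' deposited table. In the other direction, the acute phase gene Saa3 stood at log2 -2.09 ± 0.24 and the chemokine gene Cxcl10 at -1.51 ± 0.20 in the authors' deposited table. Tnf, Il1b, Il6, Il10, Ifnb1 and Cxcl2 were not listed.

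**Figure D3:**
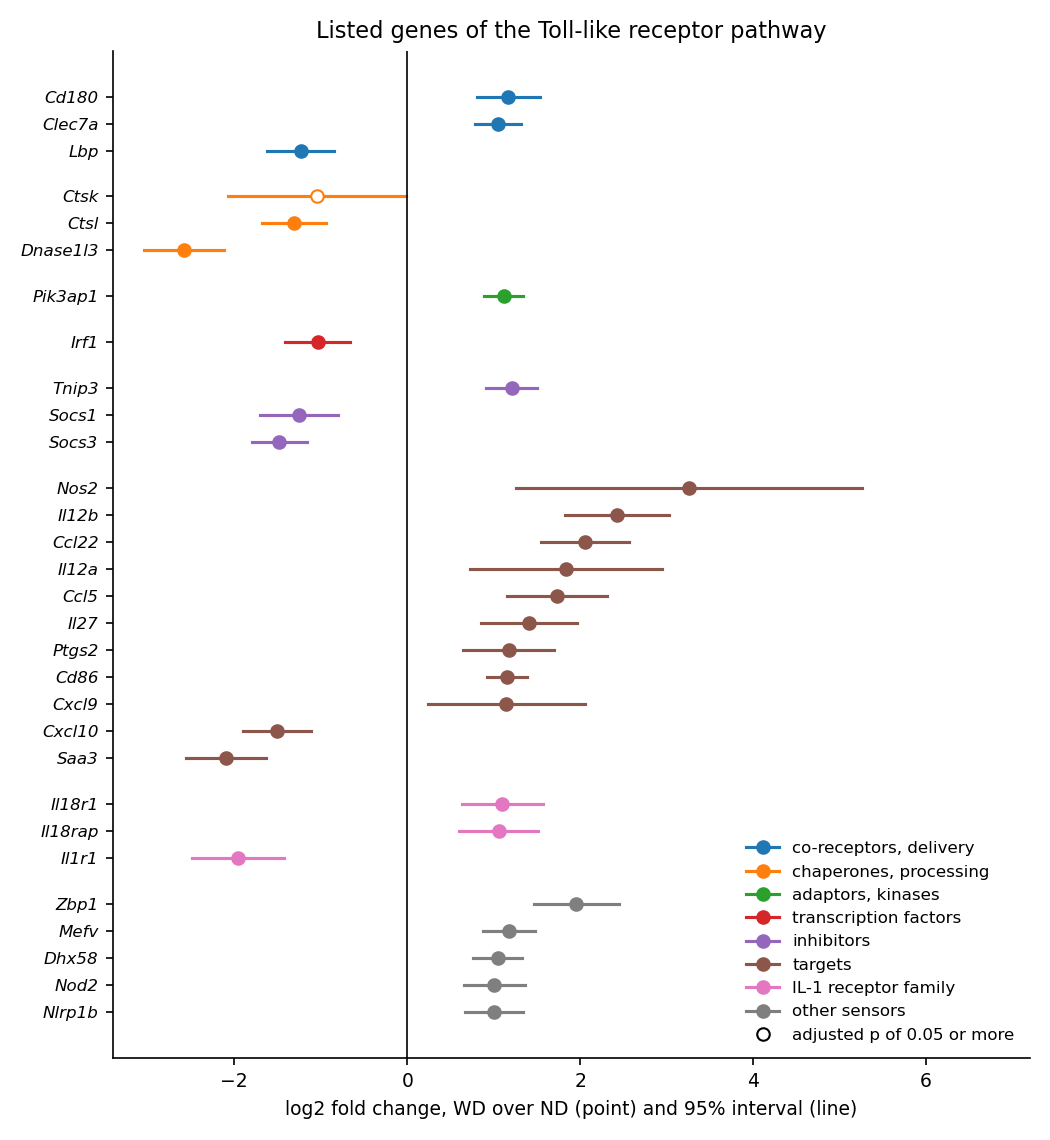
Log2 fold change (WD over ND) of every listed gene of the 8 pathway lists outside the receptor family, as points coloured by list with 95% intervals from the authors' SE, and with an open point where the adjusted p was 0.05 or more. All 5 listed sensors and 9 of 11 listed targets lie to the right of 0, while all 3 listed processing genes and 2 of 3 listed inhibitors lie to the left.

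Other receptors and sensors that signal beside the Toll-like receptors were also followed. The interleukin-1 receptor family shares the cytoplasmic TIR domain; of its 9 members the authors' deposited table held 3, with 2 called higher (22.2%, against 3.0% of all tested genes) and 1 lower (11.1%, against 8.35%). The interleukin-18 receptor genes Il18r1 and Il18rap stood at log2 1.10 ± 0.24 and 1.06 ± 0.23, against -1.96 ± 0.27 for Il1r1, the interleukin-1 receptor gene. Of 20 other nucleic acid and microbial sensors the authors' deposited table held 5, and all 5 rose (25.0% called higher, against 3.0% of all tested genes). Zbp1, a sensor of Z-form nucleic acid, rose 3.88-fold (log2 1.96 ± 0.25). The pyrin gene Mefv (1.18 ± 0.15), the RNA sensor gene Dhx58 (1.05 ± 0.14), the muramyl dipeptide sensor gene Nod2 (1.01 ± 0.18) and the inflammasome gene Nlrp1b (1.002 ± 0.17) rose by about as much as Tlr8 and Tlr12 in the authors' deposited table.

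Enrichment terms that the authors computed on listed genes with a positive fold change included the receptors in 36 of the 132 GO terms and 9 of the 47 KEGG terms that had a Benjamini p below 0.05. All 6 shared 6 GO terms. The smallest of these, toll-like receptor signaling pathway, held 8 genes at 28.7-fold enrichment (Benjamini p 6.45e-07) in the authors' deposited table, and beside the 6 receptors only Cd86 and Cd180. The KEGG pathway of the same name held 10 genes (Benjamini p 0.000103), among them Tlr1, Tlr5, Tlr8 and Tlr9, in the authors' deposited table. Because these terms were computed on the list that the receptors themselves belong to, they are not independent evidence. Tlr9 was in the most terms, 31 of GO and 6 of KEGG, and Tlr11 and Tlr12 in the fewest, with 7 GO terms each and 1 KEGG term, Toxoplasmosis, for Tlr11. Tlr8 and Tlr9 were placed together in the GO terms on response to virus and on interferon production. Of the 6, Tlr5 alone was in defense response to bacterium and Tlr11 alone in response to bacterium. Tlr5 and Tlr9 were both in cellular response to lipopolysaccharide.

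**Figure D4:**
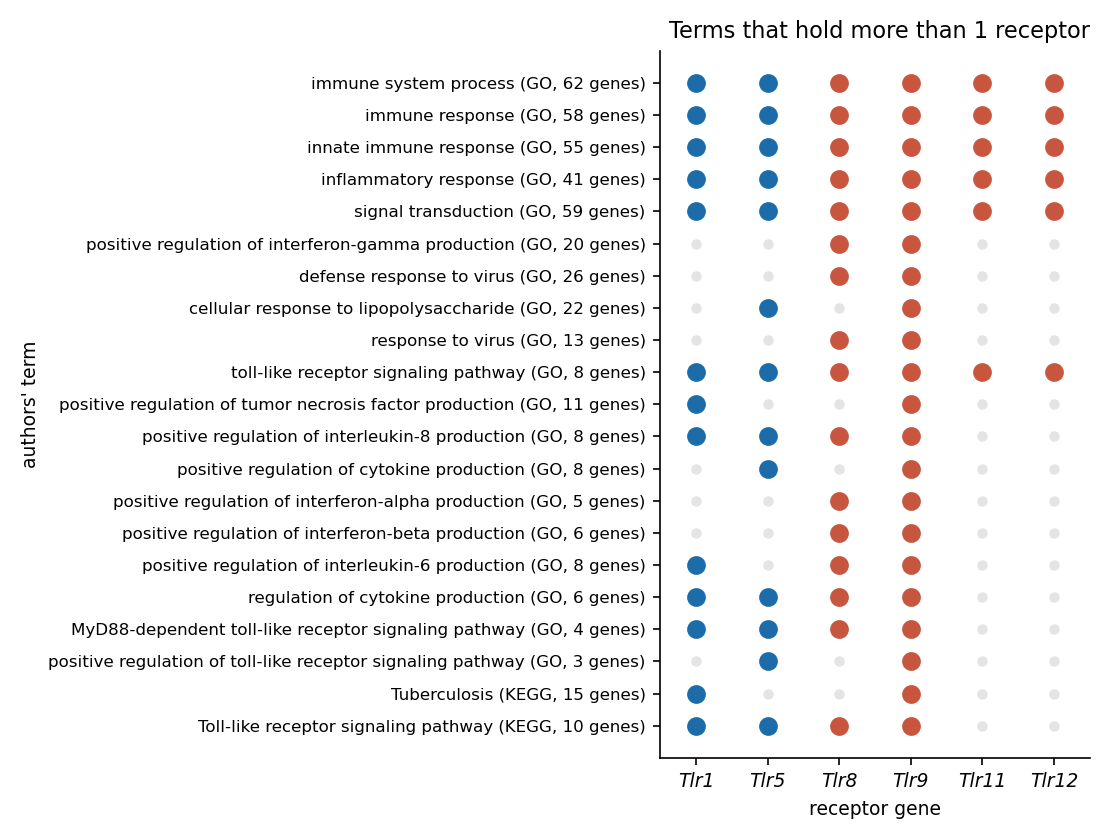
The 21 authors' terms with a Benjamini p below 0.05 that hold more than 1 of the 6 receptor genes (rows, with the number of listed genes in each term) against the receptor genes (columns). A large point, blue for surface and red for endosomal receptors, marks membership and a small grey point its absence. The column of Tlr9 is filled in all 21 rows, and those of Tlr11 and Tlr12 in 6.

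Markers of cells that carry these receptors moved in the same comparison, and their part in the receptor values was not tested. In bulk RNA, more cells of a type and more RNA per cell cannot be told apart. The marker counts stand against 3.0% of all tested genes called higher and 8.35% called lower. Monocyte markers numbered 14, of which the authors' deposited table held 7 that were called higher (50%) and 1, Fn1, that was called lower (7.14%). Among the higher ones were Ms4a4c (2.52 ± 0.25), Plac8 (1.76 ± 0.18) and the chemokine receptor gene Ccr2 (1.44 ± 0.20). Conventional dendritic cells include the cross-presenting subset in which mouse TLR11 and TLR12 are known to act. Of their 14 markers 4 were called higher (28.6%) and 2 lower (14.3%) in the authors' deposited table. Those with the smallest p-values were Dpp4 (-2.29 ± 0.27) and Zbtb46 (-1.13 ± 0.14), which fell, and Ccr7 (1.80 ± 0.27) and Cd209a (1.38 ± 0.23), which rose, in the authors' deposited table. Of the cross-presenting subset's markers, Xcr1 rose (1.29 ± 0.36), and Clec9a, Batf3, Cadm1 and Itgae were not listed. Of 12 markers of plasmacytoid dendritic cells, which are known for TLR9, 2 rose (16.7%): Runx2 (1.10 ± 0.13) and Ccr9 (1.15 ± 0.37) in the authors' deposited table. Siglech, a defining marker of these cells, was not listed. Of 13 B cell markers, 2 rose (15.4%), Ighm and Ms4a1, and Cd79a was not listed. Neutrophil markers had no listed member of 12.

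Set against the same shares of all tested genes (3.0% higher, 8.35% lower), the authors' deposited table held 9 of 16 T and NK cell markers as called higher (56.2%) and none as called lower. Of 10 mast cell and basophil markers 8 rose (80%) and Kit fell (10%), and 3 of 12 hepatocyte markers rose (25%), with none lower. In the authors' deposited table all 16 sinusoidal endothelial markers fell, with a median log2 fold change of -3.09, as did 7 of 12 markers of stellate cells and fibroblasts (58.3%). None of 14 Kupffer cell markers, Adgre1, Clec4f and Timd4 among them, was listed, so the macrophage label could not be checked against them. Which markers were at 0 in either diet, and the summed level of each list per diet, are unknown, as the table holds no value per group.

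**Figure D5:**
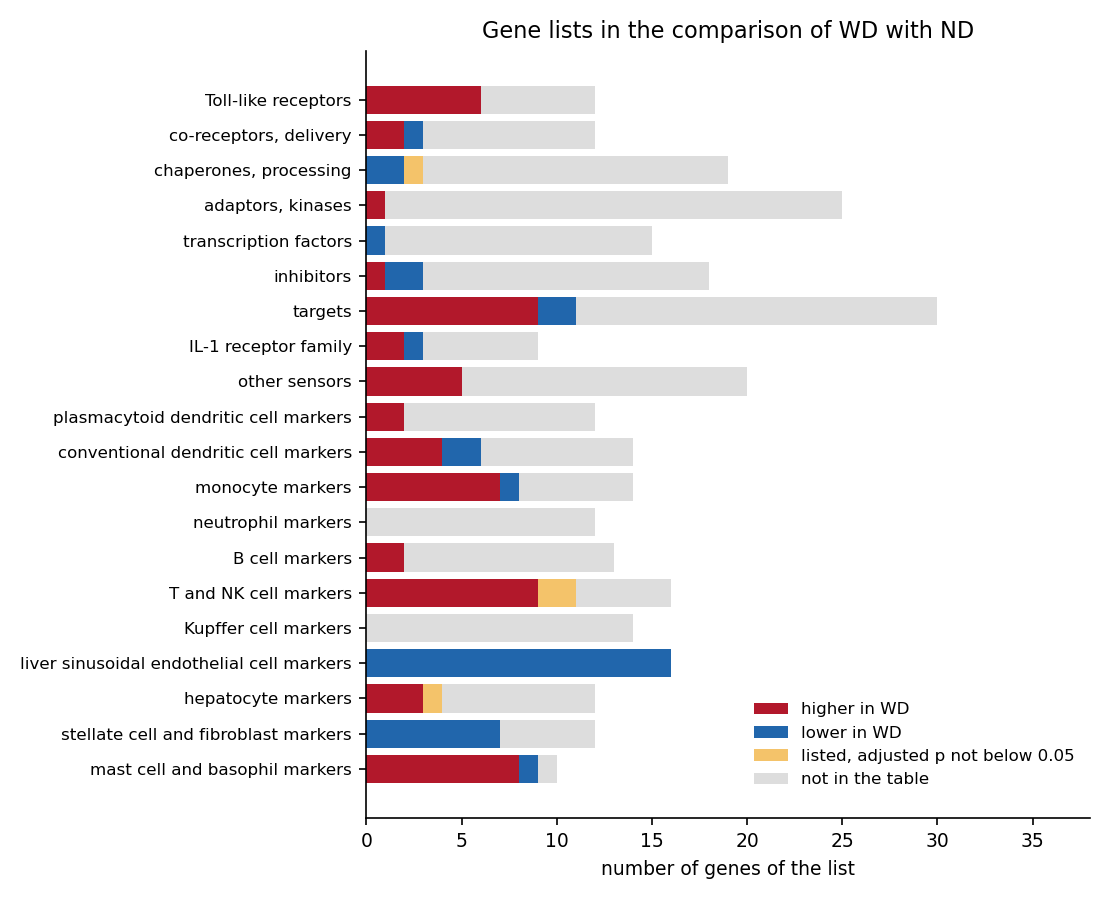
Number of genes called higher in WD (red), called lower in WD (blue), listed without an adjusted p below 0.05 (yellow) and not in the table (grey), for the receptor family, the 8 other pathway lists and 11 marker lists. Sinusoidal endothelial markers are blue throughout, and 9 of the 20 lists, the receptor family among them, show no blue.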

How the data were processed

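RNA-seq values came from 1 table for 8 libraries (WD 4, ND 4), placed in groups by their diet labels. Per the labels' protocols, RNA was taken up in Trizol, polyadenylated RNA was selected with oligo(dT) beads, and libraries were made by random priming. HISAT2, STAR, featureCounts, StringTie, edgeR, DESeq, STAR-Fusion and the build mm10 are named in the submitters' processing notes, without roles or versions.

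Per the file headers, each deposited row holds a mean normalized count (a signal averaged over libraries), a log2 fold change with its SE, a test score, a p-value and an adjusted p-value, under the column names that DESeq2 uses. The deposited score equals fold change over SE to within 7.1e-08. The authors also deposited GO and KEGG terms with a gene count, a fold enrichment ratio and p-values.

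The number of tested genes, 17531, was recovered as the whole number that made 91.0% of ranks (p-value times that number over adjusted p) whole within 0.02; the step returned the true number in 2 of 2 simulated tables. Calls used the authors' adjusted p below 0.05 over all tested genes; 77 listed genes had none and were not called. Intervals of 95% are the log2 fold change plus and minus the normal quantile times SE. Coordinates, exon lengths and 50-base words came from GENCODE M21 (GRCm38, the assembly of mm10), in which all 6 gene IDs matched, and promoters from RefSeq (all 6 genes matched). Python 3.11.15, pandas 2.3.3 and matplotlib 3.10.9 were used.

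The receptors, gene lists and motifs were chosen with earlier results of these data known. Named genes are all 6 receptors, every called gene of the 9 pathway lists and up to 4 called genes of each marker list, those of smallest p-value. Ctsk, Fn1 and Xcr1 fall outside this and were named after their values were seen. Depth per library is unknown, so no left-out library, other normalization or count model could be tried; whether reads were counted by strand is not given in the sources used here. The library numbers in the labels run lower for all WD than for all ND libraries, so any order they follow and diet cannot be told apart. That the libraries came from separate mice rests on the series design.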

Additional observations from a re-analysis of the deposited data

How the results depend on the processing

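All 6 receptor genes kept their call at an adjusted p limit of 0.01 or 0.001, without adjustment and with a mean normalized count of at least 10. Every listed gene has a p-value under 0.05, so the setting without adjustment could drop none. The limits on p and on the interval reuse the values that chose the receptors, so a kept call is not independent evidence. With a Bonferroni limit 5 of 6 were called, since Tlr11 reached a p of 0.0534, and with the 95% interval wholly beyond 2-fold 3 were. No direction reversed, as no alternative changes a deposited fold change. With that interval limit the other pathway genes called higher numbered 5 in place of 20, those called lower 5 in place of 9, and all listed genes called higher and lower 114 and 949 in place of 526 and 1464. Among listed genes, beside 17531 tested genes, a limit of 0.01 left 386 called higher and 1293 lower, and 0.001 left 301 and 1128. The Bonferroni limit left 219 higher and 968 lower, and a mean normalized count of at least 10 left 457 and 1240. Without adjustment all 706 higher and 1680 lower listed genes were called. Fewer genes can pass each stricter limit by construction. With 1 mismatch allowed, GAGGAAGT matched 4 of the 6 receptor genes in place of 3 (34.8% of all windows). The interferon regulatory factor core matched 6 in place of 3 (87.2%) and AP-1 4 in place of 1 (69.4%). The interferon gamma activated site matched 6 in place of 2 (71.4%), NF-kB 3 in place of 0 (51.8%) and the GC box 5 in place of 1 (84.9%). Apart from GAGGAAGT, each motif was then held by most windows of all genes. Which receptors lack a motif thus depends on the exact match. Protein length and identity were planned and not run, as no protein sequences were used here. No paired analysis was possible because the table holds no values per library. For the same reason no library could be left out, and precision rests on the authors' SE alone: it was lowest for Tlr11.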

Other observations

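No protein-coding gene near a receptor gene was listed. Within 50 kb of the 6 genes, GENCODE M21 places 15 protein-coding genes, none of them in the authors' deposited table. They lie beside 5 of the 6 receptor genes, and no annotated gene overlaps a receptor gene. The table lists 2386 genes, beside 17531 with an adjusted p. With so few neighbours, whether the receptor genes stand apart from clusters of listed genes cannot be said. Both listed receptors with a close paralog next to them were listed without it. Tlr6 lies 18468 bases from Tlr1 and Tlr7 lies 40600 bases from Tlr8, and neither was listed. Whether Tlr1 and Tlr6, or Tlr8 and Tlr7, differ in their response was not tested, since an unlisted gene has no value here.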
